A study of Mus musculus with 6 samples.

Results

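The genes described are 10 writers, erasers and readers of methylation at lysine 36 of histone H3 (H3K36). They were taken by name from a count table of 31613 genes, in which each occurs once. They comprise the writers Setd2, Nsd1, Ash1l and Setmar, the erasers Kdm2a, Kdm4a, Kdm4b and Kdm4c, and the DNA methyltransferases Dnmt3a and Dnmt3b, which read the mark. All 10 passed the filter on low counts that left 16519 genes for testing. Bulk RNA-seq was performed on mDPCs (dental papilla cells of the mouse, the mesenchyme from which odontoblasts arise), collected from first mandibular molars at postnatal day 6. The 3 libraries labelled Dmp1-Cre;Setd2 fl/fl (cKO) came from mice carrying floxed Setd2 alleles and a Cre driven by the Dmp1 promoter, which is active in the odontoblast layer. The 3 control libraries are labelled wild type, whereas the study's methods name Setd2 fl/fl littermates without Cre as controls. All mice were on a C57BL/6J background, and the labels name no drug or other treatment. Each library held RNA pooled from 3 biological replicates, and what a biological replicate was is not given in the sources used here. The study's animal list gives fewer mice of each genotype for this collection than separate mice for every pooled replicate would need. Whether pools of one genotype share mice is thus not known, and the p-values rest on the spread between libraries, which may be technical in part.

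H3K36 methylation is laid down over the bodies of transcribed genes. SETD2 travels with elongating RNA polymerase II and is the main enzyme of trimethylation, whereas the NSD and ASH1L enzymes make the lower methylation states. The JmjC demethylases remove methyl groups, KDM2A mainly from dimethylated H3K36 and the KDM4 enzymes from H3K9 and H3K36. DNMT3A and DNMT3B bind methylated H3K36 through a PWWP domain and methylate DNA there. In the tooth germ, odontoblasts differentiate from the papilla and secrete the dentin matrix.

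The writers share the SET domain that transfers the methyl group. To show what the targeted gene has in common with the other writers, the coding stretch around the conserved core motif of the SET domain is given for each, read from the canonical GENCODE vM39 transcript on GRCm39. The capitals mark the 7 codons of the motif, with 5 codons on either side.
Setd2: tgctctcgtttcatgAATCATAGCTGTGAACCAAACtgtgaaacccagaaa
Nsd1: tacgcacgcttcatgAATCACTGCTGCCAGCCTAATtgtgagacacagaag
Ash1l: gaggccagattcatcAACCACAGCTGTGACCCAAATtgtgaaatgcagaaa
Setmar: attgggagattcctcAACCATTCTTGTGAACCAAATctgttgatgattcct
All 4 stretches lie in coding exons on the plus strand. That of Setd2 is in exon 7 (chr9:110392032-110392082), that of Nsd1 in exon 20 (chr13:55450685-55450735), that of Ash1l in exon 12 (chr3:88950898-88950948) and that of Setmar in exon 2 (chr6:108053162-108053212). The Setd2 stretch shared 37 of 51 bases (72.5%) with Nsd1, 37 of 51 (72.5%) with Ash1l and 22 of 51 (43.1%) with Setmar. The motif was found in 20 of 21770 protein-coding genes (0.0919%), histone methyltransferases of other lysines among them, so it does not tell the lysine. It was not found in Setd3, Setd5 or Prdm9, which are among the other H3K36 genes below. It thus does not mark every gene listed as a writer.

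The erasers share the JmjC domain, in which a histidine and an acidic residue bind iron. The capitals mark the 5 codons around this iron-binding pair, again with 5 codons on either side.
Kdm4a: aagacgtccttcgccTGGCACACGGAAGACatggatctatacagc
Kdm4b: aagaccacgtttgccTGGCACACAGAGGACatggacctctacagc
Kdm4c: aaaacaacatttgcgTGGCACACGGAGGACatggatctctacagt
Kdm2a: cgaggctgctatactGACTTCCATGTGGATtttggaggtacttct
These coding stretches lie in exon 5 of Kdm4a (chr4:118025617-118025661, minus strand), exon 5 of Kdm4b (chr17:56662977-56663021, plus strand), exon 5 of Kdm4c (chr4:74216792-74216836, plus strand) and exon 8 of Kdm2a (chr19:4401795-4401839, minus strand). Kdm4a shared 37 of 45 bases (82.2%) with Kdm4b and 36 of 45 (80%) with Kdm4c, and Kdm4b shared 38 of 45 (84.4%) with Kdm4c. The KDM4 form of the motif was found in 4 of 21770 protein-coding genes (0.0184%), the fourth being Kdm4d, and the KDM2 form in 11 (0.0505%). Dock9, Dock10 and Dock11 were among the 11, so the KDM2 form is no mark of the domain by itself.

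The readers are recognised by the PWWP domain. The capitals mark the 4 codons at the core of this domain.
Dnmt3a: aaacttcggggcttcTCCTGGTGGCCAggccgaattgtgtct
Dnmt3b: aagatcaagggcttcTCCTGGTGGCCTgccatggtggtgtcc
The stretches lie in exon 8 of Dnmt3a (chr12:3946029-3946070, plus strand) and exon 7 of Dnmt3b (chr2:153509463-153509504, plus strand) and shared 29 of 42 bases (69%). The 4 residues that these codons encode occur in 19 protein-coding genes (0.0873%), so they are no mark of the domain by themselves.

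The makeup of the libraries was read from marker lists. Levels are CPM, counts scaled to a common library size with TMM factors, fold changes are cKO over control, and depth was even, from 18557647 to 19210750 counts a library. The summed level of 8 odontoblast genes was carried mainly by Col1a1 and Dspp. It was 6340, 4431 and 36878 CPM in cKO libraries, against 71393, 73757 and 81356 CPM in controls. Of the 8, 6 were lower at a log2 fold change of -0.58 or less and an unadjusted p below 0.05. These are the thresholds of the study, by which 2.71% of all genes tested were lower. Replicate 3 of the cKO thus stood apart from the other cKO libraries, with a higher level in each of the 6 genes called. Sp7 (195, 150 and 172 CPM in cKO libraries) and Dlx3 (342, 362 and 306 CPM) did not set it apart in this way. Dspp, the dentin sialophosphoprotein gene, was the most variable of the 8 between cKO libraries relative to its level. It was at 436, 215 and 5299 CPM in cKO libraries, against 14165, 14372 and 13900 CPM in controls. Of 7 genes of the papilla mesenchyme none was called. Their sums, carried mainly by Vim, were 4711, 5085 and 5396 CPM in cKO libraries, against 4864, 5224 and 5802 CPM in controls. The log2 fold changes of the 7 ran from -0.33 (Pdgfra) to 0.39 (Prrx1). The summed level of 8 dental epithelium genes was carried mainly by the enamel matrix genes Amelx, Ambn and Enam and was highest in library 3 of both groups. The sums were 7225, 2312 and 50365 CPM in cKO libraries, against 7370, 2715 and 30514 CPM in controls. The odontoblast and papilla sums above, and those of endothelium, red cell, and neuron and Schwann genes, were also highest in library 3 of both groups. Of 4 neutrophil genes, 2 were called higher in cKO libraries, beside 1.1% of all genes tested. The log2 fold changes of all 4 ran from 2.36 to 2.92. Their sums were 64.2, 130 and 3.75 CPM in cKO libraries, against 18.8, 10.4 and 2.89 CPM in controls. The sum in cKO library 3 thus lay below those in control libraries 1 and 2. The 3 muscle genes stayed under 1 CPM in sum in each library. The part of these cells in the levels of the H3K36 genes was not tested.

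None of the 10 genes passed a test for a difference between cKO and control mDPCs in the fit by edgeR. The thresholds of the study ask for a log2 fold change of 0.58 or more in either direction with p below 0.05 before adjustment. By these, 0 of 10 were lower, beside 2.71% of all genes tested, and 0 of 10 were higher, beside 1.1%. After adjustment, edgeR called 0 of 10 with p below 0.05, and 0% of all genes tested. At an unadjusted p under 0.05 with no limit on the fold change the count by edgeR was also 0 of 10, beside 7.58% of all genes, and it was 0 by DESeq2, beside 7.85%, and 1 by limma voom (Dnmt3a), beside 26.9%. At an adjusted p under 0.05, DESeq2 called 0 of 10, beside 0.841% of all genes, and limma voom called 0 of 10, beside 8.38%. With the replicate number as a block, edgeR called 0 of 10 at the thresholds of the study, beside 4.37% lower and 2.05% higher, and 0 of 10 at an adjusted p under 0.05, beside 0.975%. The log2 fold changes were negative for 5 genes and positive for 5, with a median of 0.00013, beside 0.02 over all genes tested. Those of the writers ran from -0.0028 to 0.23, those of the erasers from -0.15 to 0.06, and those of the readers from -0.20 to 0.01. The 95% interval held 0 for all 10 genes, and for 9 of them it lay wholly within 0.58 of 0 on the log2 scale.

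**Figure D1:**
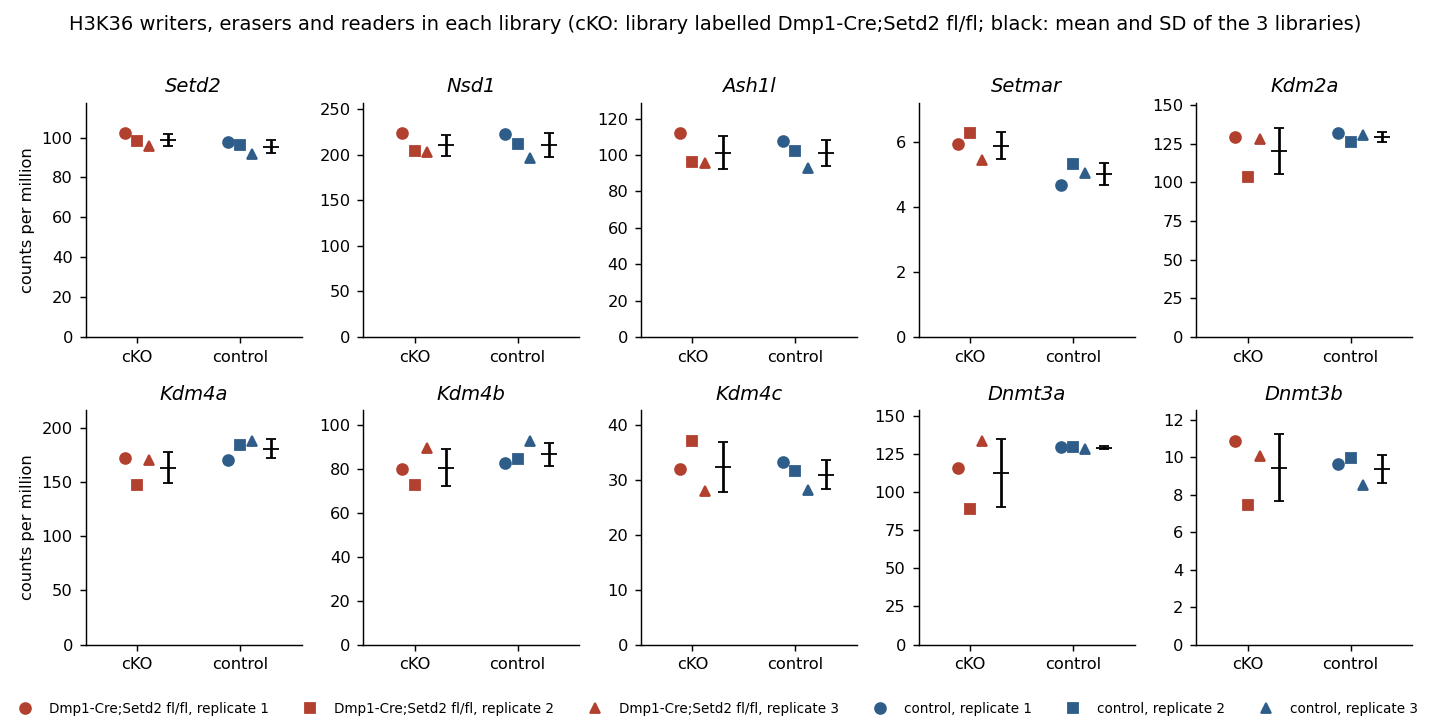
CPM of each gene in each library, cKO (libraries labelled Dmp1-Cre;Setd2 fl/fl) left and control right, with the mean and SD of the 3 libraries in black. The groups overlap for every gene but Setmar, and the cKO libraries of Dnmt3a span 88.9 to 133.9 CPM around controls that lie between 128.5 and 130.02 CPM.

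Setd2, the targeted gene, was read first. It lies on chromosome 9 from 110358262 to 110447701 (GRCm39, plus strand). Its level was 102.1, 98.5 and 96.0 CPM in cKO libraries 1, 2 and 3, against 97.98, 96.5 and 92.0 CPM in control libraries 1, 2 and 3. The groups overlapped, and no cKO library lay below the lowest control. The log2 fold change was 0.05 (SE 0.09, adjusted p = 0.900 by edgeR), with a 95% interval of -0.17 to 0.27, or a change of -10.8% to 20.3%. A loss of Setd2 RNA by more than 10.8% over all cells collected is therefore outside the interval. The count covers all exons of the gene and all cells of the papilla, Cre-positive or not, and the floxed exons are not given in the sources used here, so it does not check the labels or measure the deletion. In bulk RNA, fewer cells of a type and less RNA per cell cannot be told apart. Of the 6 libraries, the coefficient of variation of Setd2 was 3.44%, the lowest of the 10 genes, the highest being 14.0%.

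Nsd1 and Ash1l, which encode the writers of lower H3K36 methylation states, had nearly equal means in both groups. Nsd1 was at 223.7, 204.9 and 203.1 CPM in cKO libraries, against 223.6, 212.4 and 196.9 CPM in controls (log2 fold change -0.0028, SE 0.10, adjusted p = 0.995 by edgeR). Ash1l was at 111.8, 96.3 and 95.6 CPM in cKO libraries, against 107.6, 102.4 and 93.1 CPM in controls (log2 fold change 0.0030, SE 0.11, adjusted p = 0.995 by edgeR). In both genes library 1 was the highest of its group and library 3 the lowest, in cKO and control mDPCs alike. The same order held for Setd2 but not for Setmar, and its share over all genes tested was not counted. The intervals were -15.9% to 18.4% for Nsd1 and -16.8% to 20.7% for Ash1l. Ash1l overlaps Dap3 on the opposite strand in the deposited positions, and the counting did not use strand, so reads of the overlap cannot be assigned by strand. Dap3 held 8029 counts over the 6 libraries.

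Setmar encodes a SET-domain enzyme that in primates is fused to a transposase. It was the only one of the 10 genes whose groups did not overlap, at 5.93, 6.26 and 5.43 CPM in cKO libraries, against 4.67, 5.32 and 5.05 CPM in controls. Every cKO library lay above every control, as for 7.26% of all genes tested, while 7.98% lay below. The lowest cKO library and the highest control, 5.43 and 5.32 CPM, corresponded to 100 and 101 counts before scaling. The log2 fold change was 0.23 (SE 0.18, adjusted p = 0.749 by edgeR), with an interval of -12.7% to 57.3%. Counts of 88 to 124 a library make it the thinnest of the 10 genes, and a change of 1.5-fold upward is inside its interval.

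Among the erasers, Kdm2a, Kdm4a and Kdm4b had lower means in cKO than in control mDPCs and Kdm4c a higher one, none past the test. Kdm2a, a demethylase that also binds unmethylated CpG islands, was at 129.0, 103.2 and 128.2 CPM in cKO libraries, against 131.6, 125.9 and 130.7 CPM in controls. Libraries 1 and 3 of the cKO lay within the range of the controls, and library 2 lay below all of them. The log2 fold change was -0.11 (SE 0.12, adjusted p = 0.823 by edgeR), and it was -0.01 without cKO library 2.

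Kdm4a, a demethylase of H3K9 and H3K36, was at 172.0, 147.0 and 170.6 CPM in cKO libraries, against 170.5, 183.7 and 187.7 CPM in controls. Its log2 fold change was -0.15 (SE 0.11, adjusted p = 0.738 by edgeR), and this was the smallest p of the 10 genes. The interval of the change ran from -24.5% to 8.09%. Kdm4b, its paralog, was at 79.9, 72.7 and 89.4 CPM in cKO libraries, against 82.9, 84.4 and 92.8 CPM in controls (log2 fold change -0.10, SE 0.11, adjusted p = 0.820 by edgeR). In both paralogs cKO library 2 was the lowest of all 6 and control library 3 the highest. Kdm4c, the third paralog, was at 32.1, 37.2 and 28.0 CPM in cKO libraries, against 33.3, 31.7 and 28.2 CPM in controls (log2 fold change 0.06, SE 0.14, adjusted p = 0.920 by edgeR). For Kdm4c, in contrast, cKO library 2 was the highest of all 6.

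Of the readers, Dnmt3a had the larger SD in CPM between cKO libraries. It encodes a de novo DNA methyltransferase and was at 115.8, 88.9 and 133.9 CPM in cKO libraries, against 130.02, 129.9 and 128.5 CPM in controls. cKO libraries 1 and 2 lay below all controls and cKO library 3 above them. The SD was 22.6 CPM in cKO and 0.832 CPM in control mDPCs, and the narrow control spread was not set against counting error. On the log2 scale the cKO libraries lay at -0.16, -0.54 and 0.05 from the mean of the controls. Those of Dnmt3b lay at 0.21, -0.33 and 0.10. For Dnmt3a, the group comparison was as follows. The log2 fold change was -0.20 (SE 0.16, adjusted p = 0.750 by edgeR), with an interval of -32.5% to 12.6%. It was -0.05 without cKO library 2 and -0.34 without cKO library 3, and in the fit without cKO library 3 the adjusted p was 0.217 by edgeR. The fits by voom, without cKO library 3, and without library 3 of both groups put its unadjusted p below 0.05, in each case with a log2 fold change smaller than 0.58 in size. The order of the cKO libraries by Dnmt3a, and by Kdm4b, was also their order by Dspp and by several marker sums. These were the sums of the odontoblast, dental epithelium, red cell, and neuron and Schwann genes. The neutrophil sum ran in the reverse order, as did that of macrophage and osteoclast genes. The papilla mesenchyme and endothelium sums followed neither order. Of the other H3K36 genes, Nsd2, Phf1, Polr2a and Dnmt1 were among those that also had the order of Dnmt3a. Many genes can share an order of 3 libraries, and the share of all genes with this one was not counted. The part of any cell type in this was not tested. Dnmt3b, the other de novo enzyme, was at 10.9, 7.42 and 10.0 CPM in cKO libraries, against 9.66, 9.95 and 8.50 CPM in controls. Its groups overlapped, with cKO library 2 lowest and cKO library 1 highest of all 6 (log2 fold change 0.01, SE 0.20, adjusted p = 0.992 by edgeR).

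**Figure D2:**
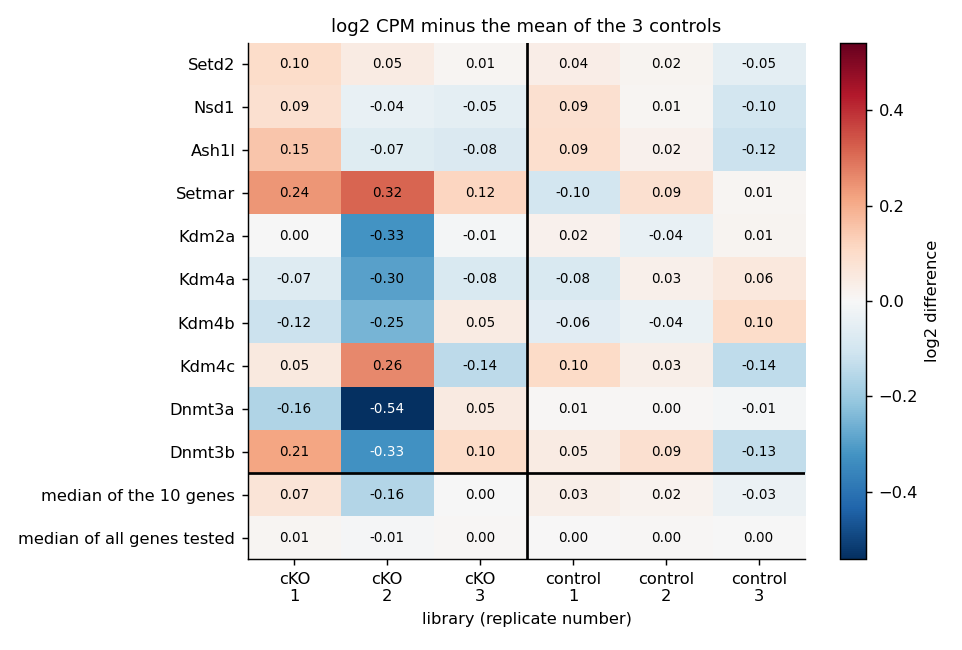
Difference of log2 CPM from the mean of the 3 controls, with 1 column per library (cKO left, control right) and 1 line per gene, followed by the medians of the 10 genes and of all genes tested. cKO library 2 holds the lowest value, -0.54 for Dnmt3a, and its median over the 10 genes is -0.16, against -0.01 over all genes tested.

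cKO library 2 was the lowest of the 6 libraries for 5 of the 10 genes (Kdm2a, Kdm4a, Kdm4b, Dnmt3a and Dnmt3b) and the highest for Setmar and Kdm4c. Over all genes tested it was the lowest for 28.4% and the highest for 29.3%. Relative to the controls, the median of the 10 genes was 0.07, -0.16 and -0.0020 on the log2 scale in cKO libraries 1, 2 and 3, against 0.03, 0.02 and -0.03 in control libraries 1, 2 and 3. Without cKO library 2, the log2 fold changes of the 5 genes were -0.01 (Kdm2a), -0.08 (Kdm4a), -0.03 (Kdm4b), -0.05 (Dnmt3a) and 0.16 (Dnmt3b). Setd2, Nsd1 and Ash1l were instead lowest in control library 3. Over all genes tested, that library was the lowest for 21.1%. Of the writers outside the 10 genes, Nsd2, Smyd5 and Setd5 were lowest in cKO library 2. Nsd3, Setd3 and Prdm9 were lowest in control library 3, and Smyd2 in control library 1. Whether a library or the cells in it set these values was not tested. Within same-numbered pairs, the cKO library was the higher in all 3 pairs for Setd2 and Setmar, as for 22.7% of all genes tested, and the lower in all 3 for Kdm2a and Kdm4b, as for 20.1%. cKO library 3 stood apart by the odontoblast genes called lower in cKO. Without it, the log2 fold changes of the writers were 0.07 (Setd2), 0.02 (Nsd1), 0.04 (Ash1l) and 0.28 (Setmar). Those of the erasers were -0.16 (Kdm2a), -0.18 (Kdm4a), -0.19 (Kdm4b) and 0.16 (Kdm4c), and those of the readers -0.34 (Dnmt3a) and -0.04 (Dnmt3b). Without this library 0 of the 10 genes passed the thresholds of the study, beside 6.88% of all genes lower and 4.01% higher. With library 3 left out of both groups the count was also 0 of 10, beside 7.55% lower and 4.49% higher.

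Between genes, levels were compared as CPM per kilobase of canonical transcript. Kdm4a stood highest, at 34.9 ± 3.01 CPM per kb in cKO and 38.6 ± 1.93 CPM per kb in control mDPCs (SD, n = 3 each). Kdm4b (17.0 ± 1.77 in cKO and 18.3 ± 1.12 in control) and Nsd1 (16.4 ± 0.891 and 16.5 ± 1.04, in the same order) followed, all in CPM per kb, with ranges over the 6 libraries that overlapped. Kdm2a, Dnmt3a and Setd2 came next and overlapped along this order, at 13.4 ± 1.63, 11.6 ± 2.32 and 11.7 ± 0.364 CPM per kb in cKO and 14.4 ± 0.342, 13.3 ± 0.0853 and 11.3 ± 0.371 CPM per kb in control mDPCs. Ash1l and Kdm4c overlapped with each other, at 8.70 ± 0.788 and 7.63 ± 1.08 CPM per kb in cKO and 8.68 ± 0.631 and 7.30 ± 0.612 CPM per kb in control mDPCs. Setmar was at 3.61 ± 0.256 and 3.08 ± 0.200 CPM per kb, cKO and control, and Dnmt3b, the lowest, at 2.22 ± 0.422 and 2.2003 ± 0.179 CPM per kb. The highest mean over the 6 libraries was 16.7 times the lowest. In every library Kdm4a was at rank 1, Setmar at rank 9 and Dnmt3b at rank 10, and of the 9 neighbouring pairs 4 overlapped in their ranges. Setd2 was sixth by its mean, and sixth in cKO library 3 and in each control library.

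**Figure D3:**
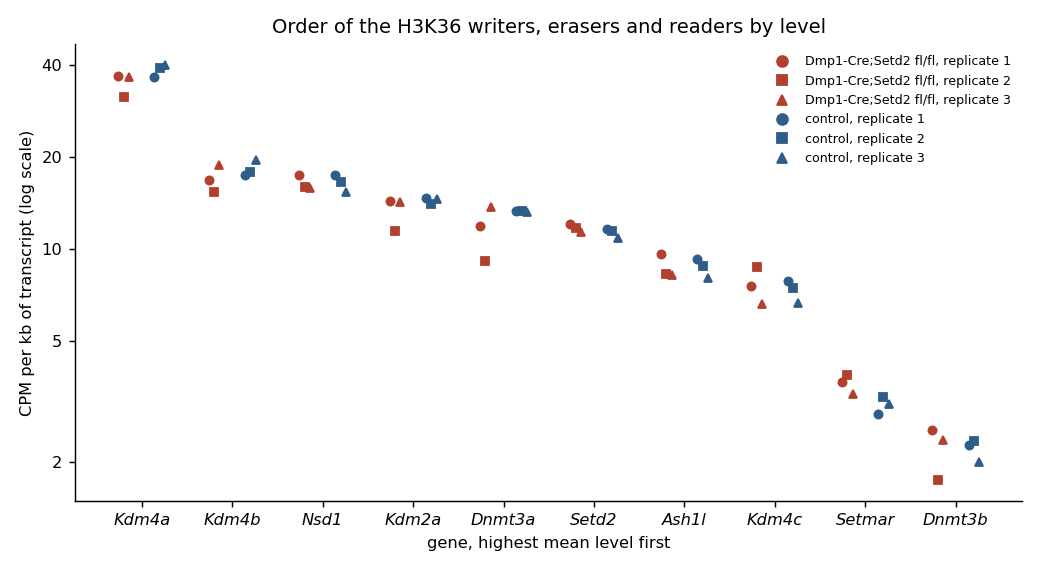
CPM per kilobase of canonical transcript on a log axis, 1 point per library, cKO left of control for each gene, with the genes ordered by their mean over the 6 libraries. Kdm4a lies apart at the top between 31.4 and 40.2 CPM per kb, and Dnmt3b at the bottom between 1.74 and 2.55 CPM per kb.

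The rest of the H3K36 machinery was read from a list of 34 genes. Of these, 33 were tested, and Dnmt3l, which encodes a catalytically inactive partner of the DNMT3 enzymes, was left out with 10 counts over the 6 libraries. At the thresholds of the study 0 of 33 were lower and 0 were higher, at an unadjusted p under 0.05 the count was 0 by edgeR, 0 by DESeq2 and 4 by voom (Prdm9, Riox1, Phf1 and Mettl14, beside 26.9% of all genes), and edgeR, DESeq2 and voom with an adjusted p under 0.05 called 0, 0 and 0. The median log2 fold change was 0.01, with 16 values negative and 17 positive, and the interval lay within 0.58 of 0 for 19 of 33. Kdm8 lay lower in all cKO libraries than in every control (1 of 33, beside 7.98% of all genes tested), and Setd3 and Zmynd11 higher (2 of 33, beside 7.26%), without passing the test. Without cKO library 3, edgeR put 6 of 33 at an unadjusted p under 0.05 (Morf4l1, Msl3, Psip1, Brpf1, Phf1 and Polr2a), beside 21% of all genes, and without library 3 of both groups it put 5 there (Prdm9, Morf4l1, Psip1, Phf1 and Mettl14), beside 25.7%. With the replicate block, 2 of 33 had an unadjusted p under 0.05, Psip1 and Polr2a, beside 17.3% of all genes.

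Of the other writers, the smallest p belonged to Setd3, which encodes an actin histidine methyltransferase once described as an H3K36 enzyme. It was at 87.4, 104.8 and 93.0 CPM in cKO libraries, against 86.4, 85.5 and 77.2 CPM in controls (log2 fold change 0.20, SE 0.11, adjusted p = 0.696 by edgeR). Smyd5, a SET and MYND domain gene, had a log2 fold change of -0.17 (SE 0.12) and Nsd2, the paralog of Nsd1, one of -0.17 (SE 0.13). Of the other erasers, Kdm8 was at 7.22, 7.48 and 7.60 CPM in cKO libraries, against 8.59, 8.63 and 9.92 CPM in controls (log2 fold change -0.28, SE 0.16, adjusted p = 0.696 by edgeR). Kdm2b, the paralog of Kdm2a, had a log2 fold change of -0.19 (SE 0.13) and Riox1, a JmjC hydroxylase gene, one of 0.24 (SE 0.20).

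Among the other readers, Psip1, whose PWWP protein LEDGF binds H3K36-methylated chromatin, was at 111.8, 147.4 and 96.0 CPM in cKO libraries, against 102.5, 99.2 and 84.9 CPM in controls (log2 fold change 0.31, SE 0.17, adjusted p = 0.696 by edgeR). Its groups overlapped, with cKO library 2 the highest of all 6. In each same-numbered pair the cKO library was the higher, and with the replicate block the log2 fold change was 0.29 (SE 0.12, adjusted p = 0.253 by edgeR). Zmynd11, a reader of trimethylated H3K36 on H3.3, was at 154.4, 148.6 and 160.8 CPM in cKO libraries, against 140.6, 142.5 and 131.1 CPM in controls (log2 fold change 0.16, SE 0.10, adjusted p = 0.699 by edgeR). Phf1, a Tudor domain partner of PRC2, was at 49.6, 35.5 and 61.9 CPM in cKO libraries, against 61.1, 61.1 and 60.4 CPM in controls (log2 fold change -0.31, SE 0.19, adjusted p = 0.708 by edgeR). As for Dnmt3a, cKO libraries 1 and 2 lay below the controls and cKO library 3 above them.

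Polr2a, the gene of the largest subunit of RNA polymerase II, whose tail recruits SETD2, had the smallest p of the 33 genes. It was at 146.9, 108.7 and 150.4 CPM in cKO libraries, against 150.3, 168.6 and 182.2 CPM in controls (log2 fold change -0.30, SE 0.15, adjusted p = 0.686 by edgeR). The groups overlapped only by cKO library 3 and control library 1, at 150.4 and 150.3 CPM. In each of the 3 same-numbered pairs the cKO library was the lower, and with the replicate block the log2 fold change was -0.31 (SE 0.13, adjusted p = 0.257 by edgeR). Dnmt1, the maintenance DNA methyltransferase gene, had a log2 fold change of -0.23 (SE 0.16), and H3f3b, which encodes H3.3, one of 0.08 (SE 0.13).

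**Figure D4:**
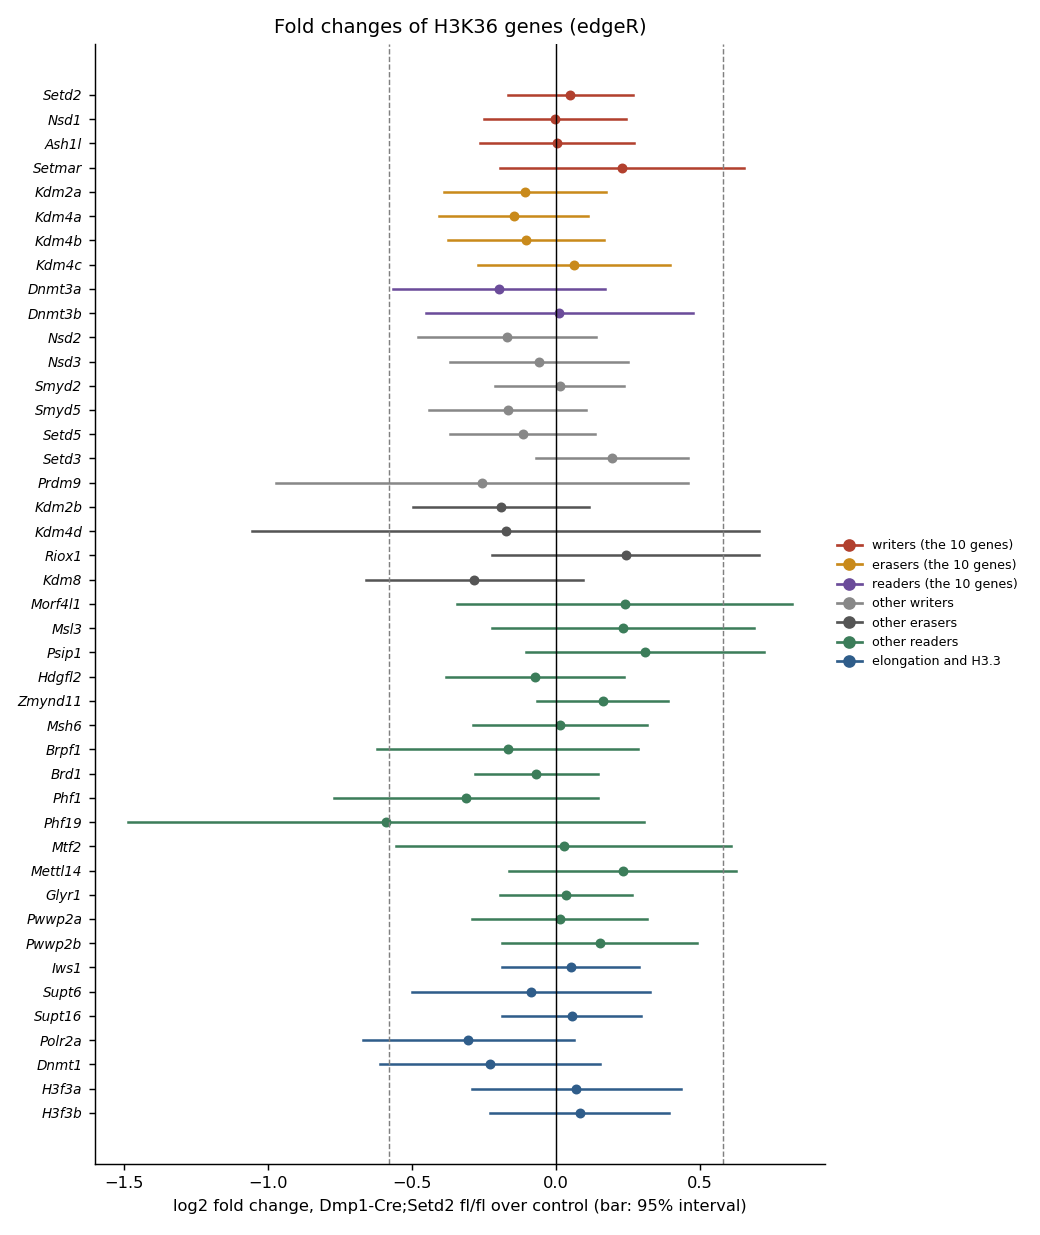
Log2 fold change of cKO over control with its 95% interval for the 10 genes and, under them, the 33 other H3K36 genes tested, coloured by class, with dashed lines at -0.58 and 0.58. Every interval crosses 0, and of the 10 genes only Setmar has an interval that crosses a dashed line.

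The genes whose pattern over the 6 libraries was most like that of Setd2 were Mark1, Zfp454 and Gm4876, with Pearson correlations of log2 CPM of 0.996, 0.995 and 0.995. Mark1 encodes a microtubule affinity-regulating kinase and was at 32.3, 29.4 and 26.7 CPM in cKO libraries, against 28.9, 27.3 and 24.1 CPM in controls. The 6 points of each correlation share library and depth scaling, and 31 of the genes tested exceeded 0.95, so the values describe these libraries alone.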

How the data were processed

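mDPC RNA was sequenced in 3 Dmp1-Cre;Setd2 fl/fl (cKO) and 3 control libraries. Reads had been aligned by the authors (HISAT2) and assigned to genes by HTSeq, ignoring strand and alignments of quality below 10. The deposited values are raw counts in whole numbers. Bowtie2, DESeq2 and the build GRCm39 stand in the submitters' processing notes too. Of 30436 genes matched to GENCODE vM39 on GRCm39, 1.3% had the same start or end as in the table. Matched by symbol to RefSeq on GRCm38.p6, 47.4% of 24547 genes did. Of the 10 genes, 8 matched on GRCm38.p6 and 0 on GRCm39. The deposited positions, in which the overlap of Ash1l and Dap3 was read, thus match GRCm38 better than the GRCm39 that the submitters name. The coordinates printed are instead those of GENCODE on GRCm39. The table also holds the authors' own comparison (mean, fold change and p-values), which was not used.

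The groups were fitted in R 4.3.3 by the robust quasi-likelihood F test of edgeR 4.0.16 with TMM factors, after filterByExpr (minimum count 10), and p-values were adjusted over 16519 genes by the Benjamini-Hochberg method. Standard errors and 95% intervals came from the same fit, and log2 CPM used a prior count of 2. The study's condition on q was not applied. The fits by edgeR, DESeq2 and voom were tested on simulated data. The 10 genes and all lists were chosen with earlier results of these data known. Of the other H3K36 genes, those past the study's thresholds were to be named, else the 3 with the smallest p in each class, and the 3 genes most correlated with Setd2 and Dspp were also named. Over all genes, no 2 libraries agreed within sampling noise. For single genes, counting error was not set against the spread between libraries. It weighs most in Setmar, with 88 to 124 counts a library.

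Tried beside this were RLE factors, depth summed without the 100 highest genes, all genes unfiltered, only genes with 10 counts in every library, DESeq2 1.42.0, voom of limma 3.58.1 with quality weights, a replicate block, removal of single libraries, and removal of replicate 3 from both groups. Libraries are numbered in the labels. Over genes, the deviations of the cKO and control library of one number from their group means had correlations of 0.453 (replicate 1), 0.465 (replicate 2) and 0.663 (replicate 3), which met the rule for pairing by number, although cKO replicate 1 and control replicate 2 correlated at 0.455. Values are from the fit without the block unless the block is named. Motifs were searched by a script in the translated coding sequences of canonical GENCODE transcripts.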

Additional observations from a re-analysis of the deposited data

How the results depend on the processing

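The counts of the 10 genes lower, higher and called at an adjusted p under 0.05 stayed at 0 under all 14 alternatives, as did the count of the 33 other H3K36 genes at the study thresholds. With the replicate block, no call at these thresholds changed, 2 of the 33 other genes (Psip1 and Polr2a) had an unadjusted p under 0.05, and the log2 fold change of Dnmt3b was -0.0011. Setd2, Setmar, Kdm2a, Kdm4a, Kdm4b and Dnmt3a kept the sign of their log2 fold change throughout, Setd2 between 0.02 and 0.07. Values near 0 changed sign without passing the test. Nsd1 was at 0.00053 with RLE factors, 0.0013 with no filter, 0.00055 with DESeq2 and 0.034 with voom, and between -0.050 and 0.039 with single libraries left out. Ash1l was at -0.0045 without the 100 highest genes, -0.0037 with the strict filter, -0.0052 with replicate 3 left out of both groups, and between -0.071 and 0.049 with single libraries left out. With single libraries left out, Kdm4c ran from -0.046 to 0.16 and Dnmt3b from -0.098 to 0.16, and Dnmt3b was at -0.089 with replicate 3 left out of both groups. The causes were not tested. Setd2 was sixth of 10 by level per kilobase, and also sixth by coding length and with no length, but rank 5 in cKO library 1 and rank 4 in cKO library 2 taken alone. Dnmt3a moved to rank 2 by coding length, where its range overlapped that of Kdm4a at rank 1. With no length, Nsd1 was at rank 1, Kdm4a at rank 2 and Kdm4b at rank 7. Dnmt3b was then at rank 9 and Setmar at rank 10. Setmar and Dnmt3b, with 88 to 227 counts a library, had the widest intervals of the 10 genes.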
